A study of Homo sapiens with 12 samples.

Results

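MicroRNA gene loci were followed through HuR-IP and IgG-IP of MiaPaCa-2 cells. A locus was taken as every transcript cluster of the array whose single gene symbol was MIR and a number, with an optional letter or suffix, or MIRLET7, and genes ending in HG, which name the longer host transcripts, were left out. This gave 1506 clusters of 1470 microRNA genes among 36176 clusters with a single symbol. All 1506 were kept whatever their signal. A cluster at a microRNA gene can register the primary transcript, the hairpin precursor, the intron that holds it or another RNA with the same letters, and the array does not tell these forms apart.

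The RNA came from MiaPaCa-2, an established human line of pancreatic ductal adenocarcinoma. The cells were exposed to DMSO as vehicle, or for 16 h to the PARP inhibitor olaparib at 10 µM or to the nucleoside analog gemcitabine at 1 µM. The time in DMSO is not stated. Cytoplasmic lysates were immunoprecipitated with an antibody to HuR (HuR-IP) or with nonspecific IgG (IgG-IP), and the recovered RNA was hybridized to Clariom D arrays. There were 12 arrays in 6 groups, 2 for each antibody and treatment, and all groups were of the same line with no genetic change. Each pair is labelled as biological replicates and its preparation is not described, so the p-values measure the spread between these arrays, which may be technical.

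A microRNA gene is transcribed as a long primary transcript, often within the intron of a host gene. DROSHA and DGCR8 cut out a hairpin in the nucleus, XPO5 and RAN carry it to the cytoplasm, and DICER1 trims it to the mature strand that an Argonaute protein holds. The seed, bases 2 to 8 of the mature strand, pairs with target mRNAs. HuR, the product of ELAVL1, binds U-rich and AU-rich stretches of mRNA and is known both to compete and to cooperate with microRNAs at shared targets.

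Sequences are shown first for the loci on which the comparisons turned. RefSeq gives a hairpin for 1190 of the 1470 symbols, and all positions of sequences below are those of RefSeq on GRCh38.p14. The 3 hairpins below belong to the called loci with the largest differences of either sign that have a mature strand in RefSeq and a defined place. Loci that differed more but were not called are left out, and capitals mark the mature strand.
MIR4426, chromosome 1, 192716328 to 192716390, plus strand, 63 bases: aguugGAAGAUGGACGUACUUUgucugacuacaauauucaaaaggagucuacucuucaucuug
MIR3654, chromosome 7, 133034860 to 133034915, minus strand, 56 bases: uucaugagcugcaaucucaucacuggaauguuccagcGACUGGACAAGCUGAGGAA
MIR3198-1, chromosome 22, 17764180 to 17764259, minus strand, 80 bases: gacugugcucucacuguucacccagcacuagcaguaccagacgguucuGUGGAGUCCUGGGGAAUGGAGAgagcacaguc
MIR4426 overlaps the ribosomal protein pseudogene RPS27AP5, MIR3654 lies within CHCHD3 on its strand and overlaps the pseudogene LOC729998, and MIR3198-1 lies within BID on its strand. Exon and intron borders were not used here.

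The mature strands of 9 further loci that differed between the antibodies are given with the seed in capitals. They belong to loci described below, and the 3 MIR548 strands show how the seeds of 1 family differ.
miR-5087, chromosome 1, 148334522 to 148334544, minus strand: gGGUUUGUagcuuugcuggcaug
miR-3135a, chromosome 3, 20137574 to 20137595, plus strand: uGCCUAGGcugagacugcagug
miR-3135b, chromosome 6, 32749952 to 32749973, minus strand: gGCUGGAGcgagugcaguggug
miR-4261, chromosome 2, 10192624 to 10192639, minus strand: aGGAAACAgggaccca
miR-197-3p, chromosome 1, 109598940 to 109598961, plus strand: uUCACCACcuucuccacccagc
miR-4454, chromosome 4, 163093607 to 163093626, minus strand: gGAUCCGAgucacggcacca
miR-548ac, chromosome 1, 116560038 to 116560059, minus strand: cAAAAACCggcaauuacuuuug
miR-548ad-3p, chromosome 2, 35471453 to 35471474, plus strand: gAAAACGAcaaugacuuuugca
miR-548n, chromosome 7, 34940804 to 34940825, minus strand: cAAAAGUAauuguggauuuugu
The called loci with a mature sequence carried 35 seeds, and no seed was shared by 2 of them. The seeds of the 3 MIR548 strands all open with AAAA and part after it.

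Some features of the arrays bear on every locus. The deposited values are log2 signals, and 23 antigenomic features, which match no human sequence, gave the background of each array: their 95th percentile lay between 5.08 and 6.27. Array 2 of HuR-IP in DMSO and array 2 of HuR-IP in gemcitabine stood nearer to IgG-IP than the others: over 9406 bright clusters their root mean square difference from IgG-IP was 1.11 and 1.26, against 2.02 to 2.30 for the other 4 HuR-IP arrays. The counts of called loci, and the loci whose 2 HuR-IP arrays lay far apart, are given with and without them. These 2 arrays were picked from these same data for lying near IgG-IP. Leaving them out therefore tends to widen the differences and is no independent support for a locus. It also leaves a single HuR-IP array in DMSO and in gemcitabine. Among the markers of the line, ELAVL1 (18.5), VIM (12.4), KRT8 (10.1) and KRT18 were bright and HMGA2 (3.86) was near background, all 4 acinar markers and 2 of 6 ductal ones (EPCAM and CDH1) were near background, and of the fibroblast markers COL1A1 (9.45) and COL1A2 (7.89) were above it and DCN (4.39) was not. Of markers of other cell types, CD3E (5.67), GCG (4.95) and CDH5 (4.90) passed the limit on at least 1 array. PTPRC, PECAM1 and ALB did not.

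Most microRNA loci gave little signal. Their median over the 12 arrays was 3.81, against 4.19 for all clusters with a single symbol, and the highest mean was 16.6. A locus was called near background in a treatment where it was at or below the background limit on all 4 arrays. This held for 1271 loci (84.4%) in DMSO, 1196 (79.4%) in olaparib and 1182 (78.5%) in gemcitabine, while the shares of all named clusters were 67.9%, 65.0% and 61.5%. On all 12 arrays together 1128 loci (74.9%) were near background, compared with 48.3% of protein-coding clusters, which left 378 loci above the limit on at least 1 array. On a single array between 96 loci (IgG-IP array 1 of DMSO) and 289 loci (HuR-IP array 2 of olaparib) were above the limit, and both antibodies left most loci below it. The shares depend on the limit: at the median of the antigenomic features plus 1 they were 40.3%, 33.3% and 36.4%.

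**Figure D1:**
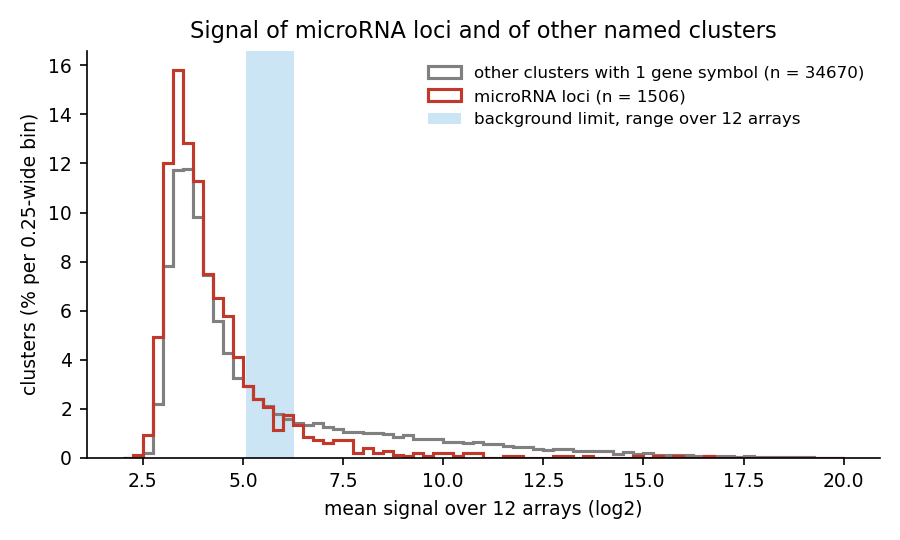
Distribution of log2 signal (x axis, mean of the 12 arrays) as the percentage of clusters in each bin (y axis), for the 1506 microRNA loci and for the other clusters with a single gene symbol. The shaded band is the range of the background limit over the arrays, 5.08 to 6.27, and the loci pile up below it around their median of 3.81.

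Only 19 loci had a mean above 10. MIR3654 was the brightest at 16.63, followed by a cluster named MIR548N (15.83), MIR6088 (15.35), both clusters named MIR4426 (14.87 and 13.58), MIR4472-2 (13.20), MIR3135A (12.97) and MIR1268B (11.84). These bright loci went in different directions. MIR6088 read 15.07 and 15.37 in HuR-IP against 14.75 and 15.77 in IgG-IP of DMSO, 15.20 and 15.59 against 14.99 and 15.96 in olaparib, and 15.53 and 15.40 against 14.47 and 16.07 in gemcitabine. The groups of MIR6088 overlapped in every treatment and the mean log2 difference was 0.03 (limma adjusted p = 0.976), and that of MIR1268B was 0.21 (limma adjusted p = 0.854).

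Few loci separated HuR-IP from IgG-IP. With the difference averaged over the 3 treatments, 33 loci (2.19%) were higher and 10 (0.664%) lower in HuR-IP at an adjusted p under 0.05 by limma, where 2.37% of all named clusters were higher and 7.15% lower. The share of higher loci was thus close to that of all clusters in this fit, and the share of lower loci was below it. At an unadjusted p under 0.05 the counts were 143 loci higher (9.5%) and 43 lower (2.86%), against 7.95% and 15.5% of all clusters. The median log2 difference was 0.05 over the loci and -0.07 over all clusters, 59.9% of loci and 41.9% of all clusters lay above 0, and 87.3% of loci and 69.8% of all clusters lay within 0.5 of 0. Among 289 loci and 12919 clusters kept when dim clusters were left out, the medians were 0.15 and -0.38, with 24 loci (8.3%) higher and 7 (2.42%) lower against 8.86% and 21.0% of the clusters.

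Of the 43 called loci, 29 of the higher and 7 of the lower passed the background limit on at least 1 array. The HuR-IP pair lay wholly above or wholly below the IgG-IP pair in all 3 treatments for 17 of the 33 higher and 8 of the 10 lower loci. Over all 1506 loci it lay above in 42 and below in 25. Calls and sides rest on the same 12 arrays, so the sides follow in part from the calls. Lying on 1 side was also a condition for picking the 5 highest and 5 lowest loci described below. For those loci, groups that do not overlap are therefore no separate support. When each array was left out in turn, 5 of the higher loci (MIR3198-1, MIR3135A, MIR548AA2, MIR4261 and MIR548AD) and 4 of the lower clusters (both named MIR4426, MIR3654 and MIR5087) were called in all 12 fits. The count of higher loci ran from 6 without IgG-IP array 1 of DMSO to 58 without HuR-IP array 2 of gemcitabine, and that of lower loci from 4 without HuR-IP array 1 of DMSO to 7 without IgG-IP array 1 of DMSO. Without the 2 HuR-IP arrays that stood nearer to IgG-IP, 60 loci (3.98%) were higher and 11 (0.73%) lower, with 28 and 6 of the called loci among them, where 6.54% and 10.4% of all clusters were. A block for the replicate number gave 63 (4.18%) and 17 (1.13%), all 43 included, against 6.37% and 11.1% of all clusters. In both of these fits the share of higher loci was below that of all clusters. With each array centred on its brighter clusters, which moved the median of all clusters from -0.07 to 0.36, 66 loci were higher and 4 lower, and the split over all clusters went from 859 higher and 2586 lower to 2338 and 1825.

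**Figure D2:**
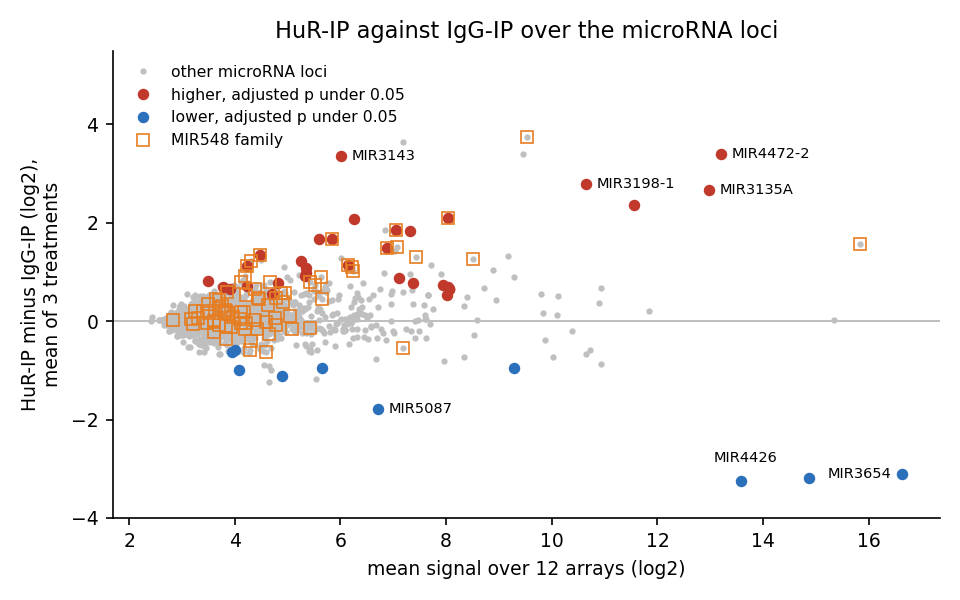
Mean log2 difference of HuR-IP over IgG-IP (y axis) against mean log2 signal (x axis) for each microRNA locus, with the 33 higher and 10 lower loci in red and blue and the MIR548 family in open squares. MIR4426 and MIR3654 stand apart at the lower right near -3, while MIR4472-2, MIR3143 and MIR3198-1 lead the higher loci.

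The lowest differences were those of 2 clusters named MIR4426. The cluster whose array identifier gives chromosome 1 read 13.92 and 13.33 in HuR-IP against 16.80 and 16.38 in IgG-IP of DMSO, 13.52 and 12.46 against 16.60 and 16.48 in olaparib, and 13.50 and 12.95 against 16.39 and 16.10 in gemcitabine. HuR-IP was lower than IgG-IP on every array of every treatment, and the groups did not overlap. The mean log2 difference was -3.18 (SE 0.23, n = 2 arrays per group, limma adjusted p = 0.000149), and this was the only locus called in DMSO (-2.97, limma adjusted p = 0.0237) and in gemcitabine (-3.02, limma adjusted p = 0.0126) as well as in olaparib (-3.55, limma adjusted p = 0.00405).

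The second MIR4426 cluster, whose identifier gives chromosome 16 while RefSeq places the gene on 1, had 12.92 and 11.79 in HuR-IP against 15.62 and 14.90 in IgG-IP of DMSO, 12.14 and 11.11 against 15.66 and 14.95 in olaparib, and 12.39 and 11.39 against 15.60 and 14.54 in gemcitabine. It too was lower in HuR-IP on every array, with a mean difference of -3.25 (SE 0.35, limma adjusted p = 0.00097). The hairpin of MIR4426 lies in RPS27AP5, a copy of RPS27A, which encodes ubiquitin joined to a ribosomal protein. RPS27A had no cluster of its own among the single-symbol clusters, and UBB, which encodes polyubiquitin, was lower by -1.74 (SE 0.27, limma adjusted p = 0.006). Whether the signal came from the microRNA gene or from a near-identical copy cannot be told apart here.

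MIR3654 was lower in HuR-IP in all 3 treatments. Its signals were 14.87 and 16.77 in HuR-IP against 18.35 and 17.98 in IgG-IP of DMSO, 14.33 and 13.87 against 18.46 and 17.84 in olaparib, and 14.42 and 16.18 against 18.56 and 17.96 in gemcitabine. The higher of the HuR-IP arrays in DMSO and gemcitabine was in both cases the array numbered 2 that stood nearer to IgG-IP. The mean difference was -3.12 (SE 0.41, limma adjusted p = 0.00246), or -3.73 without those 2 arrays, and in olaparib it was -4.05 (limma adjusted p = 0.0218). CHCHD3, a mitochondrial protein gene that holds MIR3654 on the same strand, was also lower in HuR-IP (-2.43, limma adjusted p = 0.011), and so was a further cluster that the array names for both EEF1G, a translation elongation factor subunit, and MIR3654 (-1.77, SE 0.23, limma adjusted p = 0.00270).

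MIR5087 was the dimmest locus among those lower in all 12 leave-one-out fits. HuR-IP gave 7.02 and 5.65 against 8.34 and 7.49 in DMSO, 5.80 and 5.74 against 7.47 and 8.66 in olaparib, and 5.42 and 5.20 against 7.26 and 6.37 in gemcitabine, a mean difference of -1.80 (SE 0.33, limma adjusted p = 0.0122). The groups did not overlap in any treatment, and RNVU1-21, a variant U1 small nuclear RNA gene, lies within 2000 bases. The other 6 lower loci had smaller differences, from -0.59 for MIR924 to -1.12 for MIR4710 (limma adjusted p = 0.0296 and 0.0441). Of these 6, 3 were near background on all 12 arrays, MIR924 among them. MIR622 (-0.95, SE 0.21, limma adjusted p = 0.0252) overlaps KRT18P27, a pseudogene of the keratin gene KRT18, and KRT18 itself was lower (-2.90, SE 0.32, limma adjusted p = 0.001). MIR1285-2 (-0.95) lies within 2000 bases of the pseudogene RPL39P15, and MIR5188 and MIR3923 differed by -0.99 and -0.62.

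Among called loci the highest differences were those of MIR4472-2, MIR3143 and MIR3198-1. MIR4472-2 read 16.33 and 12.62 in HuR-IP against 11.15 and 12.36 in IgG-IP of DMSO, 15.99 and 15.43 against 11.38 and 12.07 in olaparib, and 16.07 and 12.99 against 10.64 and 11.40 in gemcitabine. All 6 HuR-IP arrays lay above all 6 IgG-IP arrays, by a wide margin on 4 of them and by little on array 2 of DMSO and array 2 of gemcitabine. The mean difference was 3.40 (SE 0.73, limma adjusted p = 0.0230) with those 2 arrays and 4.54 without them.

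MIR3143 had 10.51 and 6.17 in HuR-IP against 4.63 and 4.08 in IgG-IP of DMSO, 9.06 and 9.23 against 4.64 and 4.17 in olaparib, and 6.41 and 4.74 against 3.89 and 4.58 in gemcitabine. IgG-IP was below 5 on every array, while HuR-IP ranged from 4.74 to 10.51, and the mean difference was 3.35 (SE 0.68, limma adjusted p = 0.0184). The differences by treatment were 3.98 in DMSO, 4.74 in olaparib and 1.34 in gemcitabine, none of them past the adjusted threshold. Without the 2 HuR-IP arrays nearer to IgG-IP the mean difference was 4.35, and those of DMSO and gemcitabine were 6.15 and 2.17. That fit leaves a single HuR-IP array in each of DMSO and gemcitabine. With the replicate block olaparib was called (limma adjusted p = 0.0262). MIR3143 lies within 2000 bases of the histone genes H2BC12 and H2AC12, and H2AC12, near background, was lower in HuR-IP (-0.72, limma adjusted p = 0.040).

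The differences of MIR3198-1 were 2.79, 3.01 and 2.60 in DMSO, olaparib and gemcitabine. The signals were 13.11 and 10.96 against 9.80 and 8.69 in DMSO, 12.70 and 11.77 against 9.89 and 8.57 in olaparib, and 12.39 and 11.35 against 9.97 and 8.57 in gemcitabine, so that every HuR-IP array was above every IgG-IP array. The mean difference was 2.80 (SE 0.49, limma adjusted p = 0.00979). BID, the apoptosis gene in which it lies on the same strand, had a difference of -1.66 that did not pass the test (limma adjusted p = 0.215). MIR3198-1 was the only locus called higher in DMSO with the replicate block (limma adjusted p = 0.0073).

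MIR3135A and MIR3135B, whose mature strands have different seeds and lie on different chromosomes, were both higher. For MIR3135A, HuR-IP gave 14.48 and 13.34 against 11.08 and 12.20 in DMSO, 15.11 and 14.82 against 11.22 and 12.40 in olaparib, and 14.79 and 13.29 against 10.76 and 12.11 in gemcitabine. Its groups did not overlap in any treatment (2.68, SE 0.42, limma adjusted p = 0.00562). MIR3135B had a mean difference of 2.36 (SE 0.58, limma adjusted p = 0.0394), with HuR-IP between 11.17 and 13.91 and IgG-IP between 9.90 and 10.83.

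MIR4261 was the locus with the largest gap between treatments among those called in all 12 leave-one-out fits. HuR-IP gave 5.98 and 5.27 against 4.58 and 4.69 in DMSO, 7.39 and 7.78 against 4.73 and 4.85 in olaparib, and 6.68 and 5.44 against 4.87 and 4.80 in gemcitabine. IgG-IP lay between 4.58 and 4.87 on all 6 arrays, and the olaparib HuR-IP arrays were the highest. The mean difference was 1.67 (SE 0.24, limma adjusted p = 0.00377) and the olaparib difference 2.80 (limma adjusted p = 0.0121). The gene RRM2, a ribonucleotide reductase subunit in whose span it lies, differed by 0.04 (limma adjusted p = 0.938).

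MIR197, a locus found in many human tissues, read 5.03 and 5.74 against 4.51 and 5.12 in DMSO, 6.33 and 6.05 against 4.20 and 4.87 in olaparib, and 6.32 and 5.68 against 4.25 and 4.89 in gemcitabine. It was higher in HuR-IP by 1.22 (SE 0.24, limma adjusted p = 0.0159), with the groups apart in olaparib and gemcitabine and overlapping in DMSO. Its host GNAI3 had 0.93 (limma adjusted p = 0.247). Of the remaining higher loci, MIR4455 (2.07) and MIR3682 (1.84) had the largest differences, and those of MIR466, MIR644A, MIR378E, MIR4436B2, MIR4279, MIR6876, MIR4267, MIR6877, MIR7151, MIR589, MIR765 and MIR4673 lay between 0.54 and 1.09. MIR4279, MIR7151, MIR589 and MIR765 were near background on all 12 arrays, and of these 14 loci none was called in all 12 leave-one-out fits.

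**Figure D3:**
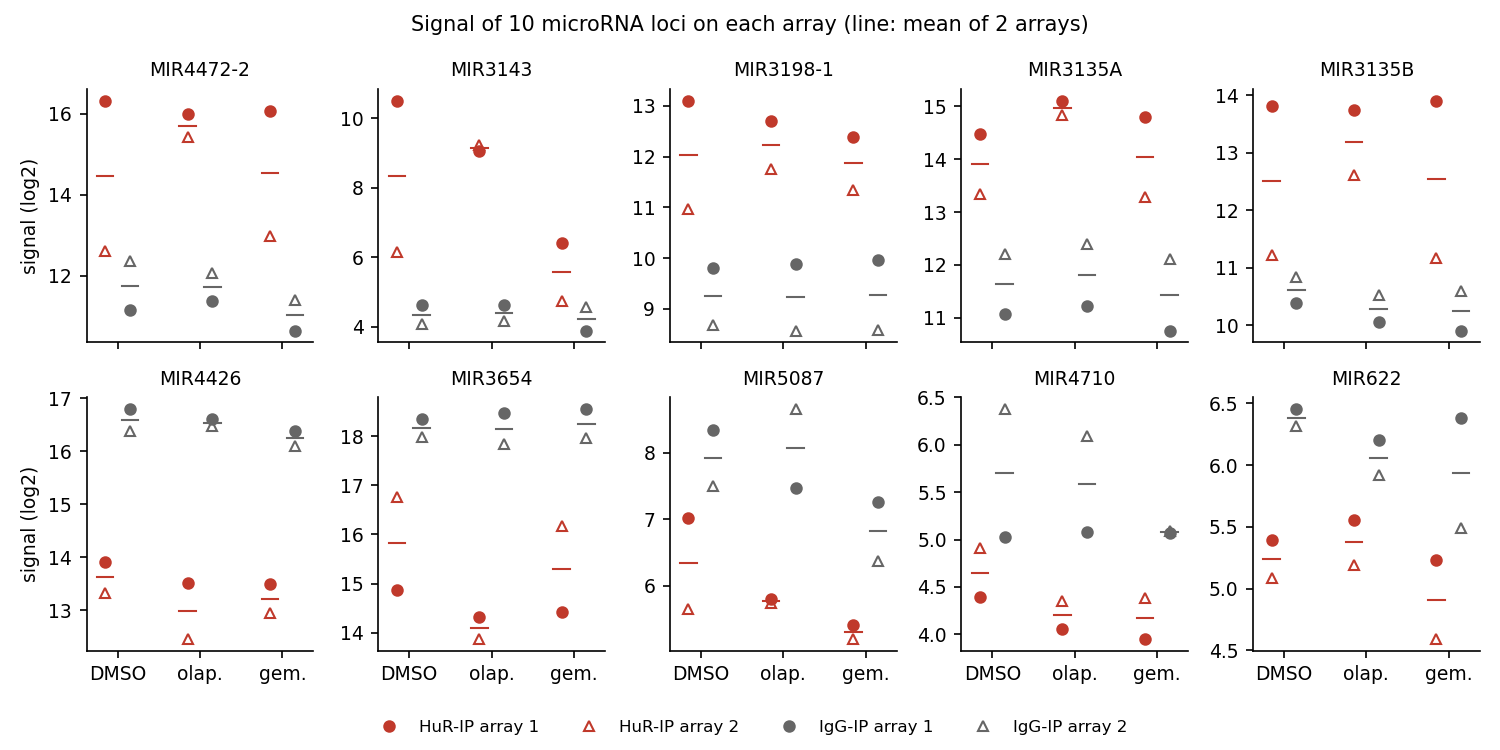
Log2 signal on each of the 12 arrays (y axis) by treatment (x axis) for 10 microRNA loci, with HuR-IP in red, IgG-IP in grey, circles for array 1, triangles for array 2 and a short line for the mean of both. The MIR4426 panel is the chromosome 1 cluster. HuR-IP lies below IgG-IP for MIR4426 and MIR3654 and above it for MIR3198-1 and MIR3135A in every treatment, and array 2 of HuR-IP lies near IgG-IP for MIR4472-2 in DMSO and gemcitabine.

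Of the 76 clusters of the MIR548 family, 7 were higher and 0 lower, where 2.37% and 7.15% of all clusters were. With dim clusters left out, the shares of the clusters kept were 8.86% and 21.0%. These 7 were among the 33 higher loci. MIR548 is a primate family whose hairpins derive from a short transposable element with many copies, and it was represented by 76 clusters of 71 genes. It was brighter than the loci at large, with 40 clusters (52.6%) near background on all 12 arrays against 74.9%. The called members were MIR548AA2 (2.10, SE 0.30, limma adjusted p = 0.00401), MIR548AC (1.86), the chromosome 7 cluster of MIR548N (1.66), MIR548D2 (1.48), MIR548H3 (1.35), MIR548A2 (1.13) and MIR548AD (1.12, SE 0.20, limma adjusted p = 0.0109). At an unadjusted p under 0.05, 20 members were higher and 1 lower (7.95% and 15.5% of all clusters), and the median difference of the 76 was 0.22 against -0.07 over all clusters.

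MIR548AA2 read 9.82 and 8.43 in HuR-IP against 6.91 and 6.61 in IgG-IP of DMSO, 9.42 and 9.84 against 7.19 and 7.21 in olaparib, and 9.08 and 7.89 against 6.68 and 7.29 in gemcitabine, with no overlap in any treatment. MIR548AC had 8.65 and 6.65 against 5.85 and 5.99 in DMSO, 8.70 and 8.48 against 5.61 and 6.04 in olaparib, and 7.96 and 7.41 against 5.98 and 7.24 in gemcitabine. MIR548AD was dim, at 4.69 and 3.79 against 3.90 and 3.79, 5.53 and 5.39 against 3.72 and 3.73, and 5.01 and 4.30 against 3.33 and 3.52. Its DMSO arrays overlapped, and the gap was widest in olaparib.

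Array clusters named MIR548N have 3 identifiers, on chromosomes 1, 2 and 7, and RefSeq places the gene on 7. The cluster on 1 was among the brightest loci and read 16.74 and 15.42 against 14.70 and 16.04 in DMSO, 17.23 and 17.34 against 14.36 and 15.28 in olaparib, and 17.39 and 15.59 against 14.59 and 15.34 in gemcitabine. Its difference of 1.57 missed the threshold (limma adjusted p = 0.0517). The cluster on 2 had the largest difference of any locus, 3.74, with a large error (SE 1.20, limma adjusted p = 0.0946), since its HuR-IP signals were 13.33 and 8.35 (DMSO), 13.90 and 11.13 (olaparib) and 13.29 and 8.44 (gemcitabine) against IgG-IP signals of 6.22 to 9.11. MIR4324 (3.64, SE 1.03, limma adjusted p = 0.0649) and MIR4653 (3.40, SE 1.12, limma adjusted p = 0.104) showed the same spread between HuR-IP arrays. Array 2 of their HuR-IP in DMSO and in gemcitabine read 6.07 and 6.16 for MIR4324 and 7.94 and 7.51 for MIR4653, and the other 4 lay between 9.33 and 10.99 and between 11.91 and 13.72. Without those 2 arrays the differences were 2.09 and 5.38 for the MIR548N clusters on 1 and 2, 5.17 for MIR4324 and 5.22 for MIR4653. Those 2 arrays were low at these loci, so wider differences without them follow from the choice of arrays. With the replicate block, all 4 of these clusters passed the test (limma adjusted p = 0.0370, 0.00100, 0.00494 and 0.0241 in the order named).

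Some clusters repeat each other. Identical values on all 12 arrays were found for 27 clusters in 11 sets, and with each set counted once 31 loci were higher and 10 lower. MIR4454 has 9 clusters on several chromosomes, of which 5 were called higher, by 0.54 to 0.69. The one with the largest difference read 8.22 and 8.24 against 7.85 and 8.05 in DMSO, 8.75 and 8.97 against 7.36 and 7.87 in olaparib, and 8.16 and 7.96 against 7.36 and 7.66 in gemcitabine, and 3 of the 5 were identical to one another. These 5 are not independent of each other.

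Treatment by treatment, olaparib had most of the calls. In olaparib 10 loci were higher and 4 lower by limma, where 0.437% and 2.91% of all clusters were called. In DMSO 0 were higher and 1 lower, against 0.0193% and 0.423%, and in gemcitabine 0 were higher and 1 lower, against 0.0498% and 0.907%. At an unadjusted p under 0.05 there were 113 higher and 22 lower in olaparib (5.62% and 11.9% of all clusters), 24 and 21 in DMSO (1.81% and 5.65%), and 50 and 24 in gemcitabine (2.92% and 7.34%). The median log2 difference of the loci was 0.12 (olaparib), 0.02 (DMSO) and 0.05 (gemcitabine), beside -0.07, -0.09 and -0.07 over all clusters. The 2 HuR-IP arrays that stood nearer to IgG-IP belong to DMSO and gemcitabine, and without them DMSO had 6 loci higher and 2 lower (1.71% and 1.28% of all clusters), olaparib 26 and 4 (2.81% and 5.79%), and gemcitabine 12 and 2 (2.14% and 3.1%). With the replicate block DMSO had 1 and 2 (0.229% and 1.09%), olaparib 35 and 7 (3.15% and 6.47%), and gemcitabine 1 and 2 (0.448% and 2.11%). Leaving out 1 array gave 0 to 14 higher loci in olaparib, with 0 without either IgG-IP array or HuR-IP array 2 of olaparib, and 0 to 3 lower loci, with 0 without IgG-IP array 1 of olaparib. The single lower call in gemcitabine was lost without any 1 of its 4 arrays, and that in DMSO without any 1 of its 4 arrays and without any 1 of the 4 IgG-IP arrays of the drugs.

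The 10 loci higher in olaparib were MIR4261, MIR548AA2, MIR548AD, MIR644A, 4 clusters named MIR4454, MIR183 and MIR1537. MIR644A read 6.54 and 6.58 in HuR-IP against 5.05 and 4.48 in IgG-IP of olaparib (1.79, limma adjusted p = 0.0426), while in gemcitabine it was 5.20 and 4.73 against 5.56 and 4.49. MIR183, a locus known from sensory cells and epithelial cancers, and MIR1537 were called in olaparib and not in the mean. MIR183 read 4.97 and 4.69 against 3.45 and 3.30 (1.45, limma adjusted p = 0.0492) and MIR1537 4.75 and 4.73 against 3.23 and 3.08 (1.59, limma adjusted p = 0.0119), all below the background limits. The 4 lower loci in olaparib were both MIR4426 clusters, MIR3654 and MIR924 (-1.08, limma adjusted p = 0.0477). Of these, MIR924 was near background on all 12 arrays.

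Each drug was then set against DMSO in how far the antibodies differed. No locus and no cluster of the whole array passed an adjusted p under 0.05 by limma in either comparison. For olaparib against DMSO, 36 loci were higher and 13 lower at an unadjusted p under 0.05, where 1.25% and 1.45% of all clusters were, and for gemcitabine against DMSO 17 were higher and 14 lower, where 0.92% and 0.639% of all clusters were. Among these, the largest of the first comparison were MIR8084 (2.15), MIR1302-1 (2.00) and MIR4261 (1.81), and the lowest MIR548AI (-2.35), MIR548F2 (-1.77) and MIR550A3 (-1.48). In the second, again among loci with an unadjusted p under 0.05, the ends were MIR4527 (1.71) and MIR4528 (-2.33). A larger count of calls in olaparib is therefore not shown to be a difference between treatments.

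The families best known in cancer cells gave few measurable loci. Of let-7 and miR-98, which restrain growth genes, 8 of 12 listed genes had a cluster, 5 were near background on all arrays, and the brightest, MIRLET7D (6.12), differed by -0.06 (SE 0.28). Of the growth-promoting miR-17 cluster and its paralogs, 9 of 15 listed genes had a cluster, and all 9 were near background. All 5 of miR-200, which holds epithelial identity, were near background too. Of miR-15/16, 3 of 8 listed genes had a cluster, all near background. Of miR-34 and others tied to p53, 6 of 10 had a cluster, and 5 of these were near background. Listed genes without a single-symbol cluster are not covered by these counts. Among 25 listed genes that earlier work linked with HuR, 17 had a cluster, and 15 of these were near background. MIR1229 (7.24) differed by -0.15 (SE 0.30), while MIR122 had -0.38 (limma adjusted p = 0.139). Of 20 listed genes linked with the pancreas and its cancer, 15 had a cluster, and 13 of these were near background. MIR221 read 6.63 and 5.69 against 4.43 and 5.85 in DMSO, 5.28 and 8.56 against 3.93 and 6.57 in olaparib, and 4.44 and 4.38 against 4.58 and 5.65 in gemcitabine (0.66, SE 0.66, limma adjusted p = 0.619). In none of these lists was a locus called in any treatment. Of all clusters at most 0.437% were higher and 2.91% lower in a treatment, both in olaparib. With so few clusters in a list, mostly near background, the absence of calls tells little about these families.

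The large imprinted and placental clusters gave almost no signal above the limit. All 43 loci of the chromosome 19 cluster (46 listed genes), all 4 of miR-371-373 and all 8 of MIR1302 (11 listed genes) were near background, with 0 calls. Of 43 clusters in the imprinted chromosome 14 region 38 were near background and 0 were called, and 4 were higher at an unadjusted p under 0.05, where 7.95% of all clusters were, among them MIR668 (0.94, limma adjusted p = 0.0503) and MIR1185-1 (0.78, limma adjusted p = 0.104). MIR668 read 5.52 and 5.74 against 4.09 and 5.21 in DMSO, 6.16 and 5.75 against 4.44 and 4.84 in olaparib, and 5.88 and 5.11 against 4.72 and 5.21 in gemcitabine, and its groups overlapped only in gemcitabine.

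**Figure D4:**
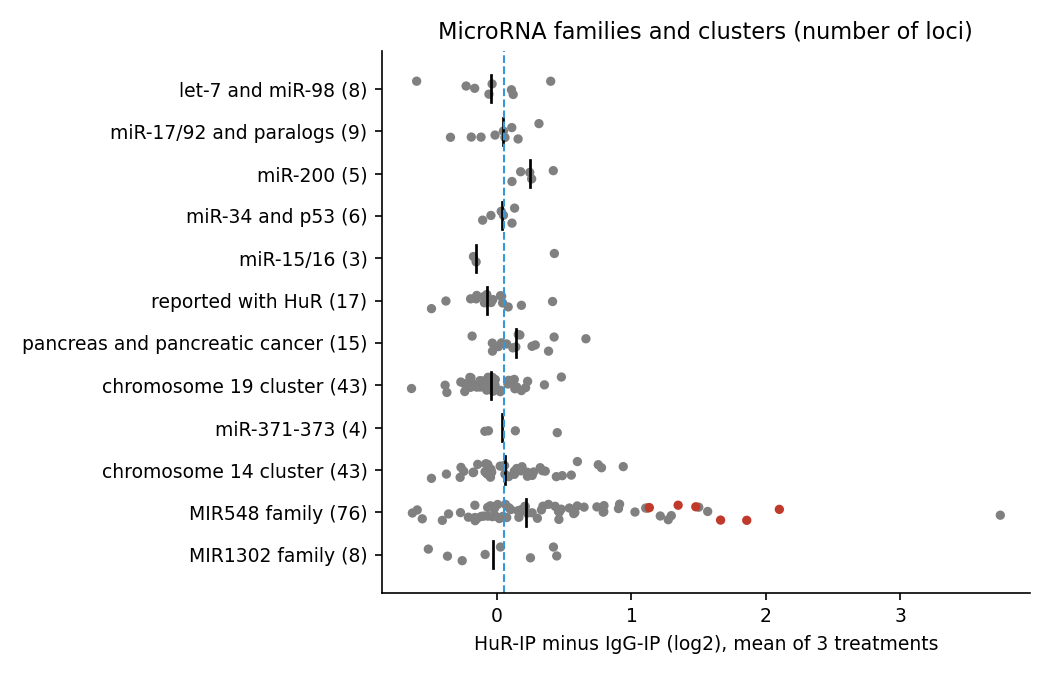
Mean log2 difference of HuR-IP over IgG-IP (x axis) for each member of the microRNA families and lists (y axis, number of clusters in brackets), 1 point per cluster, with called loci in red, a black line at each list's median and a dashed line at the median of all microRNA loci, 0.05. MIR548 holds 7 called points on the higher side, and the other lists hold none.

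Loci and their host genes were set side by side. RefSeq places 662 of the clusters in a gene on the same strand, 139 in a gene on the opposite strand and 379 in none, and for 326 the strand was not listed. For 534 clusters in a same-strand host that had a cluster of its own, the differences of locus and host had a Spearman's rho of 0.01, and of 0.10 over the 132 that were not near background, across loci that share hosts and arrays. Of these 534 clusters, 22 had a host called higher and 34 a host called lower, with a host counted once for each of its loci. Of the same 534, 9 were themselves higher and 2 lower, where 2.37% and 7.15% of all clusters were. None of the 9 higher loci had a host that was called higher, and 5 had a host above 0. MIR3654 and CHCHD3 were the single pair that was lower together. Where the host was lower, 24 of the 34 loci were near background. With the strand not listed, MIR6876 (0.77) and DOCK5 (2.40, limma adjusted p = 0.00337), a gene for a Rac activator, were both higher, as were the chromosome 7 cluster of MIR548N and DPY19L1 (0.97, limma adjusted p = 0.0427).

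**Figure D5:**
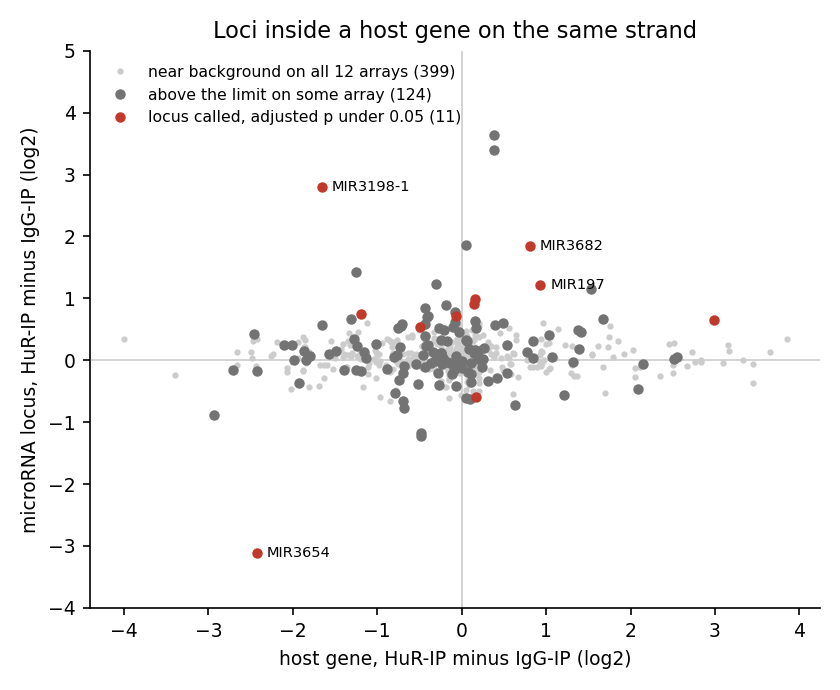
Mean log2 difference of the microRNA locus (y axis) against that of the same-strand host gene (x axis), 1 point per cluster, with loci near background in small light points and called loci in red. The points form a flat band around 0 on the y axis while the hosts spread on the x axis, and MIR3654 with CHCHD3 lies at the lower left.

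Overlap with pseudogenes went with signal. In RefSeq 30 microRNA genes overlap a pseudogene, and their 33 clusters on the same chromosome had a median signal of 4.58 with 17 (51.5%) near background, against 3.78 and 75.8% for the 1445 others. Of these 33, 1 was higher and 3 were lower, and of the 1445, 28 were higher and 6 lower, where 2.37% and 7.15% of all clusters were. The 33 include clusters with identical values, such as those of MIR6511A1, MIR6511A2 and MIR6511A3. The 3 lower ones were the chromosome 1 cluster of MIR4426, MIR3654 and MIR622. Whether the parent genes gave these signals was not tested.

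The letters of the hairpins were also examined, for 1198 clusters with a RefSeq sequence. The median GC content was 50.6% over all, 57.2% for the 14 higher loci with a sequence and 42.1% for the 7 lower ones, and the median U content was 26.5%, 23.2% and 28.3%. The pentamer AUUUA, the core of AU-rich elements, was found on the hairpin strand in 6.18% of all hairpins, 0 of the 14 higher and 1 of the 7 lower, and the run UUUUU in 9.60%, 2 of 14 and 0 of 7. Across loci, U content and the HuR-IP difference had a Spearman's rho of -0.05, or -0.03 over the 266 not near background. Signal went weakly with GC, with a Spearman's rho of 0.13 over the 1198 clusters. With these cut into 4 nearly equal parts by rising GC content, the median signals were 3.76, 3.52, 3.75 and 4.20. In the same order 15.8%, 14.2%, 26.1% and 32.7% passed the background limit on at least 1 array.

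Genes of microRNA processing and silencing went both ways. Of 20 listed genes 19 had a cluster, and 5 were higher and 1 lower in the mean of the 3 treatments, where 2.37% and 7.15% of all clusters were, and their median difference was 0.08. The higher ones were the GW182 scaffold genes TNRC6A (2.43, SE 0.15, limma adjusted p = 8.71e-05), TNRC6B (2.07, SE 0.32) and TNRC6C (0.99, SE 0.21), and the Argonaute genes AGO2 (2.27, SE 0.58, limma adjusted p = 0.0457) and AGO3 (2.08, SE 0.38, limma adjusted p = 0.011). PRKRA, a DICER1 partner, was lower (-1.99, SE 0.41, limma adjusted p = 0.020). The nuclear cutter gene DROSHA (-1.30, SE 0.66) and DICER1 (-0.40, SE 0.43) did not pass the test, and LIN28A, LIN28B and TARBP2 were near background. Of 28 host transcripts named MIR with the ending HG, 21 were near background, and 1 was higher and 1 lower, where 2.37% and 7.15% of all clusters were. MIR3681HG was higher (0.78, limma adjusted p = 0.023), at a mean signal of 4.35 and near background on all 12 arrays. MIR222HG, the primary transcript of miR-221 and miR-222, was lower (-1.31, limma adjusted p = 0.044).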

How the data were processed

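RNP-IP from cytoplasmic lysates was measured on Clariom D arrays. The authors normalized the intensities in Affymetrix Expression Console 1.4, the submitters' processing notes name RMA, and the deposited values are log2 signals, used as deposited. The array's genome build was not given in the sources used here, so cluster positions are not printed. Of 138745 features, 135750 were transcript clusters and 2995 were treated as controls. Gene names were updated with RefSeq (GRCh38.p14). The members and lists were chosen with earlier results of these data known.

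Group means of the 6 groups were fitted to all 36176 single-symbol clusters with limma 3.58.1 (R 4.3.3), with 6 residual and 2.46 prior degrees of freedom. P-values were adjusted by Benjamini-Hochberg over all of them, and adjusted p under 0.05 was called. The model was tested on simulated data with independent normal noise on each array. Same-numbered arrays of these data deviated together, so that test cannot show how the calls hold under shared deviation. A cluster was near background at or below the 95th percentile of 23 antigenomic features. Alternatives were a replicate block, cyclic loess, centring on brighter clusters, a trended and robust prior, all transcript clusters, 1 cluster per gene, dim clusters left out, the 4 arrays compared alone, arrays left out, and other background limits. Counting identical profiles once was chosen after seeing the data.

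Named loci were, by rule, the 5 highest and 5 lowest called with both HuR-IP arrays on 1 side of IgG-IP (filled at unadjusted p under 0.05), the 8 brightest, up to 3 of each list, and the 3 highest and 3 lowest of each drug difference. All other called loci and MIR4324 and MIR4653 were named after their values were seen. Same-numbered arrays deviated from their group means together (correlations of 0.15 to 0.80 over the 15 pairs of groups, 0.03 to 0.37 over microRNA loci). The labels do not say which arrays were made together, and the pairing is inferred from these values. No scan date or slide was used. The number of arrays limits the precision. Clusters with several symbols (1119, of which 329 hold a microRNA) were not members.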

Additional observations from a re-analysis of the deposited data

Results flagged for a closer look

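Clusters that the array names for several genes were outside the comparisons above, and 329 of them hold a microRNA symbol. In a fit of all 135750 transcript clusters, 3 of the 329 passed an adjusted p under 0.05 by limma with HuR-IP the higher over the 3 treatments together, a signal in data that the report's comparisons did not use. They were the cluster of RUBCN and MIR922 (log2 difference 3.58), that of CIT and MIR1178 (2.24), and that of MIR4436B1 and MIR4436B2 (0.91). Which of the joined genes was measured cannot be told apart. These 3 are a smaller share of the 329 than the 1.73% of all 135750 clusters that were higher, and 35 of the 329 were lower, against 2.88% of all clusters.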

How the results depend on the processing

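No called locus changed direction under any alternative run. Counts are loci higher and lower. In the mean of the 3 treatments (33 and 10), the replicate block gave 63 and 17, centring on brighter clusters 66 and 4, leaving out array 2 of HuR-IP in both DMSO and gemcitabine 60 higher, all transcript clusters 6 lower, and leaving out 1 array 6 to 58 higher and 4 to 7 lower. In DMSO (0 and 1) the block gave 1 and 2, leaving out those 2 arrays 6 and 2, cyclic loess, a trended prior, dim clusters left out and the 4 arrays alone 0 lower, and 1 array left out 0 higher and 0 to 1 lower. In olaparib (10 and 4) the block gave 35 and 7, centring 17 higher, the trended prior 3 and 0, all transcript clusters 3 higher, dim clusters left out 6 higher, without the 2 arrays 26 higher, the 4 arrays alone 16 higher, cyclic loess 2 lower, and 1 array left out 0 to 14 and 0 to 3. In gemcitabine (0 and 1) the block gave 1 and 2, without the 2 arrays 12 and 2, centring 2 lower, cyclic loess, the trended prior and the 4 arrays alone 0 lower, and 1 array left out 0 higher and 0 to 1 lower. Of all clusters, cyclic loess called 0.68% and 2.11% in olaparib. In DMSO the main fit called 0.0193% and 0.423%, and the block 0.229% and 1.09%. Cyclic loess gave 0.0249% and 0.235%, and dim clusters left out 0.0155% and 0.488%. In gemcitabine the main fit called 0.0498% and 0.907%, the block 0.448% and 2.11%, centring 0.0359% and 0.58%, and cyclic loess 0.0774% and 0.511%. The trended prior and the 4 arrays alone called no cluster in DMSO or gemcitabine. The cause of these changes was not tested.

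The near-background shares in DMSO, olaparib and gemcitabine were 87.5%, 81.9% and 84.9% at the highest antigenomic feature and 40.3%, 33.3% and 36.4% at their median plus 1, and with 1 array left out 84.5% to 86.1%, 79.4% to 84.3% and 78.8% to 80.8%. For the 93 named loci, alternatives other than leaving out 1 array kept direction and side of the threshold in 594 cases, lost the call in 51, gained it in 24 and changed the sign of an uncalled difference in 22. Leaving out 1 array kept it in 757, lost it in 284, gained it in 13 and changed such a sign in 62. With 2 arrays per group, small differences were not detectable, and signals near background have no reliable order.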

Other observations

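Clusters with several symbols that include a microRNA were brighter than the single-symbol loci, with a median signal of 5.90 and 115 of 329 near background on all 12 arrays. Of them 35 were lower in HuR-IP by limma in the mean of the 3 treatments and 3 were higher, against 2.88% and 1.73% of all 135750 clusters, and their median log2 difference was -0.25. In olaparib 12 were lower and 1 higher (0.983% and 0.247% of all clusters), in gemcitabine 3 and 0 (0.33% and 0.0184%), and in DMSO 1 and 0 (0.147% and 0.00442%). The cluster of VMP1 and MIR21, an oncogenic microRNA of pancreatic cancer, was bright at 16.4 and differed by -0.43 (limma adjusted p = 0.778).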
